A study of Mus musculus with 5 samples.

Results

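Protocadherins are the genes described here, a family of neuronal adhesion proteins, followed through a run-off ribosome profiling experiment in mouse brain slices. The members are the rows of the deposited count table whose symbol begins with Pcdh and whose coding sequence (CDS) is shorter than 8000 nt. The rule finds 66 of 10329 genes. Of these, 55 are clustered (12 Pcdha, 21 Pcdhb and 22 Pcdhg genes) and 11 are non-clustered. The longest is Pcdh15, with 5029 nt, and 0 Pcdh rows lie at or above the limit. The slices were hippocampal-cortical, 400 µm thick, cut from male mice (C57BL/6N, wild type) aged between 28 and 35 days, and left to recover for 3 to 4 h. All libraries are wild type and all are from slices given 20 µM homoharringtonine (HHT) for 0, 5, 10, 30 or 60 min, with 0.05% DMSO as the vehicle. Each time point is 1 library, made from a pool of 10 slices from 2 to 3 mice. Slices kept in vehicle alone for 5 to 60 min are not analysed here, so an effect of HHT and of longer time in the bath cannot be told apart.

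Protocadherins are the largest group within the cadherin superfamily of calcium-dependent adhesion proteins. The clustered genes lie in tandem arrays. Each Pcdha and Pcdhg gene has its own large first exon, which carries the ectodomain, and joins it to constant exons shared by its array, whereas Pcdhb genes consist of a single exon. Promoter choice gives single neurons different sets of clustered isoforms, and matching isoforms bind between membranes, which is known to underlie self-avoidance of dendrites and axons. The non-clustered δ-protocadherins have cytoplasmic tails of their own and are known for roles in axon growth, circuit formation and synapse turnover. HHT stops ribosomes at the first steps of elongation while those already elongating run off, so the footprints that remain within a CDS come from ribosomes that have not yet left it. Long CDSs therefore take longer to clear.

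The 55 clustered genes and Pcdh1 lie on chromosome 18. In the GRCm38 annotation the Pcdha genes span 36930285 to 37187663, the Pcdhb genes 37294840 to 37521419, and the Pcdhg genes 37661775 to 37841873. In the Pcdha array 11 of 12 genes overlap the one before and all 12 end within 10 nt of each other, and in the Pcdhg array 21 of 22 overlap and 21 share that end. The Pcdhb genes do not overlap (0 of 21). How reads from shared exons were divided among genes remains not given in the sources used here, so values of single Pcdha and Pcdhg members are uncertain. Sums over an array are less open to that division, but the Pcdha sum leaves out Pcdha6, which the count table does not hold. Pcdhb genes resemble each other closely in sequence, so the same caution holds for single Pcdhb values. Pcdhgb8, with 17 counts at 0 min, is annotated as a transcribed pseudogene.

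The question was how many footprints each protocadherin mRNA kept as ribosomes ran off, and whether clustered and non-clustered members differed. Total counts were 7155147, 2787749, 2022152, 1504748 and 1346175 at 0, 5, 10, 30 and 60 min. The 66 members held 44074, 26637, 17441, 10655 and 9883 of them. That is 0.616%, 0.956%, 0.862%, 0.708% and 0.734% of all counts, so the family's share was highest at 5 min and above its 0 min value at every later time. At 0 min 58 members had at least 100 counts, 47 of them clustered and all 11 non-clustered. Levels are given as the deposited signal, counts per kilobase of the counted CDS, and changes as the footprint ratio, the signal at a time divided by that at 0 min. All ratios share the single 0 min library. There is no replicate check, and the 95% intervals printed take in counting error alone, with no molecular identifiers stated for the reads. In bulk slices, fewer cells of a type and less translated RNA per cell cannot be told apart.

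Before run-off, the non-clustered genes had the higher footprint levels. At 0 min the median signal was 111.6 over 55 clustered members and 508 over 11 non-clustered members, with 221 over all genes. Of the clustered members 7 lay above that all-gene median, against 8 of the non-clustered ones. The highest was Pcdh1, a δ1-protocadherin, at 2523, rank 599 of 10329 genes. Pcdhgc5, a C-type γ isoform whose expression in the rodent brain is mainly postnatal, came next at 2391 (rank 631). Pcdh8 (arcadlin), an activity-induced δ2-protocadherin known in rat neurons to promote internalisation of N-cadherin, stood at 1913 (rank 808), and Pcdh9 at 1316 (rank 1215). With 1 library, the order of such neighbours as Pcdh1 (6350 counts) and Pcdhgc5 (5345 counts) has no replicate behind it. At the low end were Pcdha8 at 5.35 and Pcdhgb8 at 7.74, followed by Pcdhb8 at 17.2. The lowest non-clustered member was Pcdh15, part of the tip link of inner-ear hair cells, at 23.9.

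Within the arrays the C-type isoforms, which are expressed more constitutively than the numbered isoforms, together held a large part of the counts. Not each of them did. In the Pcdha array the signal at 0 min, in order along the chromosome from Pcdha1 to Pcdhac2, was 25.4, 61.9, 64.6, 95.8, 131.5, 51.0, 5.35, 103.8, 162.0, 190.0, 54.0 and 402. Pcdhac2, which is required for tiling of serotonergic axons in mice, was thus highest, and the last numbered gene, Pcdha12, second. Pcdhac2 gave 31.4% of Pcdha counts (interval 29.8 to 33.0). In the Pcdhg array Pcdhgc3, Pcdhgc4 and Pcdhgc5 together gave 49.8% of the counts (49.0 to 50.6). Pcdhgc5 alone gave 34.8%. Pcdhgc4 gave 4.8% of Pcdhg counts and Pcdhac1 4.0% of Pcdha counts. Pcdhb members were more even, between 17.2 and 136.1 with a median of 74.6, and 0 of 21 reached the all-gene median.

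**Figure D1:**
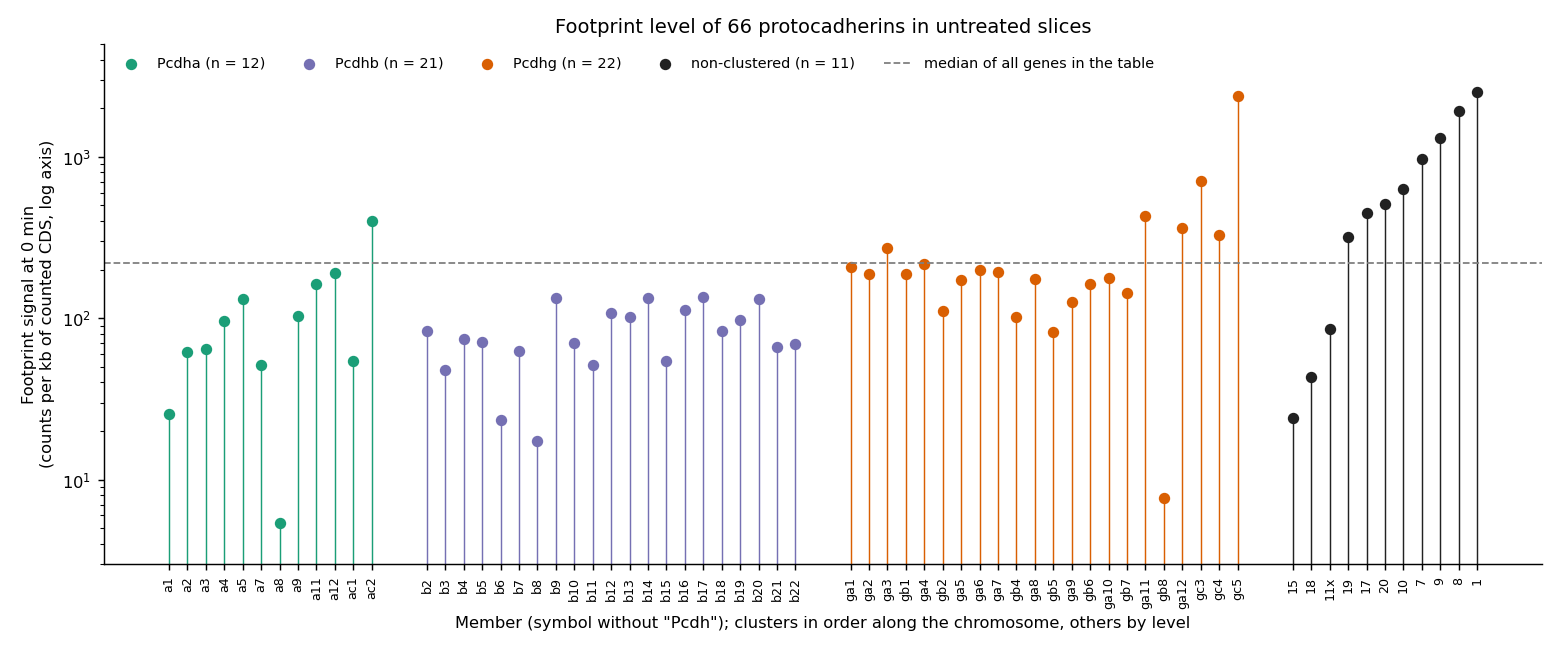
Footprint signal at 0 min (vertical log axis, counts per kb of counted CDS) of each of the 66 protocadherins, 1 point per gene from 1 library, with clusters in chromosomal order, non-clustered genes by level and a dashed line at the all-gene median of 221. Pcdh1 (2523) and Pcdhgc5 (2391) stand highest, every Pcdhb gene lies below the line, and Pcdha8 (5.35) is lowest.

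With the deposited library factors, footprints fell along the time course on every member that could be tested. The factors were 1, 0.965, 0.828, 0.882 and 0.973 in time order, while total counts fell from 7155147 to 1346175. The slopes therefore largely follow the fall in total counts, and the basis of the factors was not examined. Slopes of counts on log2(minutes + 1) over the 5 libraries, with the deposited library factors, were called lower for 64 of 64 members (edgeR, quasi-likelihood test, p adjusted by Benjamini-Hochberg over all 9444 genes tested, threshold 0.05). Over all genes 94.2% were called lower and 0% higher, so the count is near the background of this comparison. The untested members, Pcdha8 and Pcdhgb8, had a mean below 10 counts. Member slopes ran from -0.53 to -0.28 log2 units per unit of log2(minutes + 1), with a median of -0.37 against -0.41 over all genes. On an axis of plain minutes, 0 of 64 members and 24 of all genes were called, and 19 members had an unadjusted p under 0.05.

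Relative to the typical mRNA no member had a slope of its own past the threshold. With TMM scaling, which sets the typical gene level, 0 members were called higher and 0 lower (edgeR, 64 tested), and 0 had an unadjusted p under 0.05. The backgrounds were 0% higher and 0.0106% lower. DESeq2 and limma on log2(TPM + 1) each called 0 members too. Taken time by time, the members' median log2 fold after TMM scaling stood above that of all genes at 5 and 10 min and nearer to it later. It was 0.77, 0.59, 0.22 and 0.31 over 64 members, against 0.03, 0.03, -0.005 and -0.006 over all genes. At 5 min 14 of 61 members (those with 100 or more counts summed over both libraries) were at least 2-fold higher than at 0 min after TMM scaling, where the background was 6.11%, and 0 were 2-fold lower (background 5.77%). At 10 min the counts were 11 of 61 higher (background 13.1%) and 0 lower (5.68%), so the higher count is near its background. At 30 min 0 were higher (3.92%) and 1, Pcdh15, was lower (4.42%). The 60 min library had 0 of either (4.54% and 5.08%). Non-clustered genes made up 8 of the 14 at 5 min and 9 of the 11 at 10 min. Of the clustered members 6 of 50 were higher at 5 min and 2 of 50 at 10 min, the latter below the background. The clustered ones were Pcdha4, Pcdha9, Pcdha11, Pcdhga2, Pcdhga7 and Pcdhga9 at 5 min, and Pcdha11 and Pcdha12 at 10 min.

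By class medians, clustered members lost footprints earlier than non-clustered ones. Their median footprint ratios at 5, 10, 30 and 60 min were 0.556, 0.374, 0.262 and 0.219. For the non-clustered members the medians were 0.719, 0.591, 0.308 and 0.253, and for all 10329 genes 0.333, 0.268, 0.223 and 0.181. The gap between the classes, clustered minus non-clustered, was -0.16, -0.22, -0.05 and -0.03 at these times. From summed counts it was -0.12, -0.15, -0.0080 and -0.0098, and from the rounded TPM table -0.19, -0.22, -0.04 and 0.0048, so the late gap is not stable in size and from TPM it reverses at 60 min. Both of these were added after the data were seen. With 1 library per time the class difference has no test over samples. As a share of all protocadherin counts, the non-clustered genes held 51.1%, 55.8%, 58.8%, 51.8% and 52.2% in time order. Their share was highest at 10 min, with an interval of 58.1 to 59.6, and at 30 and 60 min the intervals, 50.9 to 52.8 and 51.2 to 53.1, overlapped that of the 0 min value, 50.6 to 51.5. Pcdhb genes held 7.05%, 5.74%, 5.03%, 6.75% and 7.00%, lowest at 10 min. Pcdha genes stayed between 7.04% and 7.21%.

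The classes also differ in CDS length, which moves with the ratio. The median CDS was 2391 nt for Pcdhb, 2847 nt for Pcdha, 2796 nt for Pcdhg and 3294 nt for the non-clustered genes, whose range was 2859 to 5029 nt. Across the 58 members with at least 100 counts at 0 min, Spearman's rho between CDS length and ratio was 0.68, 0.69, 0.04 and 0.04 at 5, 10, 30 and 60 min. This is a description across genes that share their libraries. Over all genes the values were 0.70, 0.47, 0.13 and 0.07. With members of 2000 to under 4000 nt alone, which leaves out Pcdh15, the class gap was -0.15, -0.22, -0.05 and -0.04. Within that range the non-clustered genes are still the longer ones.

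Against other genes of like length the members also had higher median ratios, at 30 and 60 min as well as at 5 and 10 min. Pcdhb genes had median ratios of 0.518, 0.344, 0.266 and 0.233 at 5, 10, 30 and 60 min, while the 878 genes with a CDS of 2200 to under 2600 nt had 0.419, 0.275, 0.218 and 0.178. Of the 21 Pcdhb genes 19, 18, 19 and 17 lay above that median. Pcdhg genes had 0.558, 0.412, 0.259 and 0.213, and the 629 genes of 2600 to under 3000 nt had 0.478, 0.326, 0.234 and 0.184. Of the 22 Pcdhg genes 20, 20, 17 and 15 lay above. Pcdha genes had 0.604, 0.449, 0.280 and 0.205, and of the 11 within the same band 10, 9, 8 and 7 lay above its median. The 894 genes of 3000 to under 4000 nt had 0.529, 0.420, 0.238 and 0.189. Of the 8 non-clustered genes in that band all 8 lay above at 5, 10 and 30 min and 7 at 60 min, and all 8 were above its upper quartile at 5 and 10 min. These are counts of genes from the same libraries and carry no test.

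**Figure D2:**
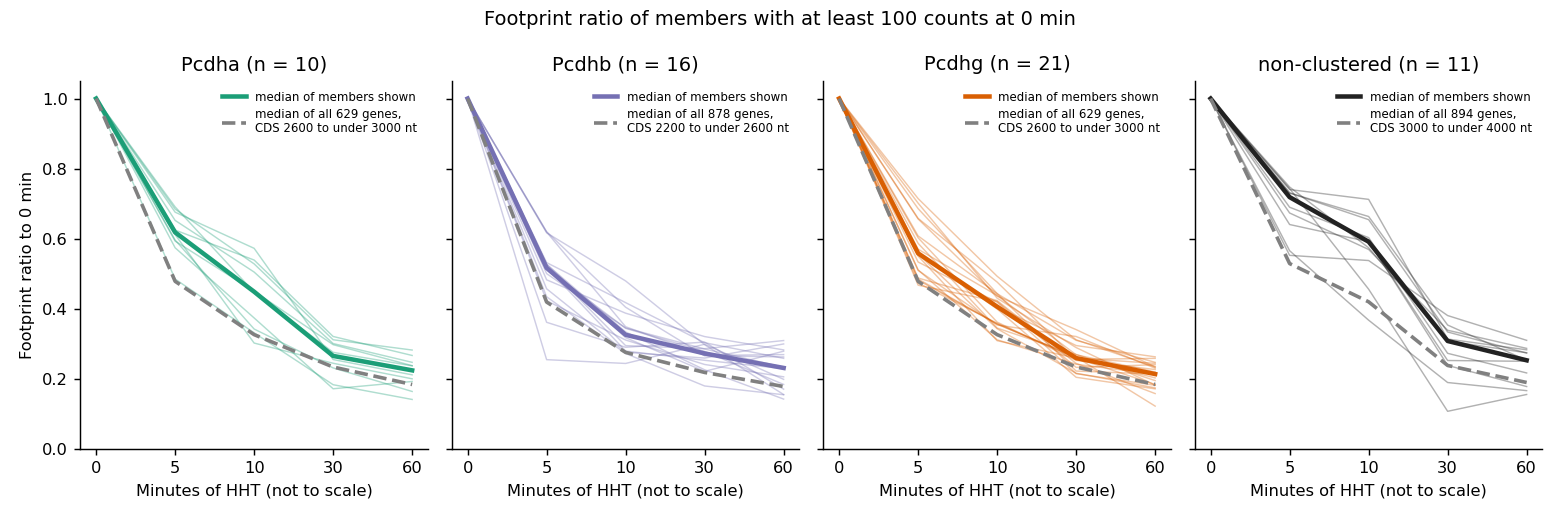
Footprint ratio to 0 min (vertical axis, no unit) against minutes of HHT (not to scale) for the members with at least 100 counts at 0 min. Thin lines are single genes, the thick line their median, and the dashed line the median of all genes in the named CDS band. The thick medians lie above the dashed ones in all 4 panels, and the non-clustered median is still at 0.591 at 10 min.

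**Figure D3:**
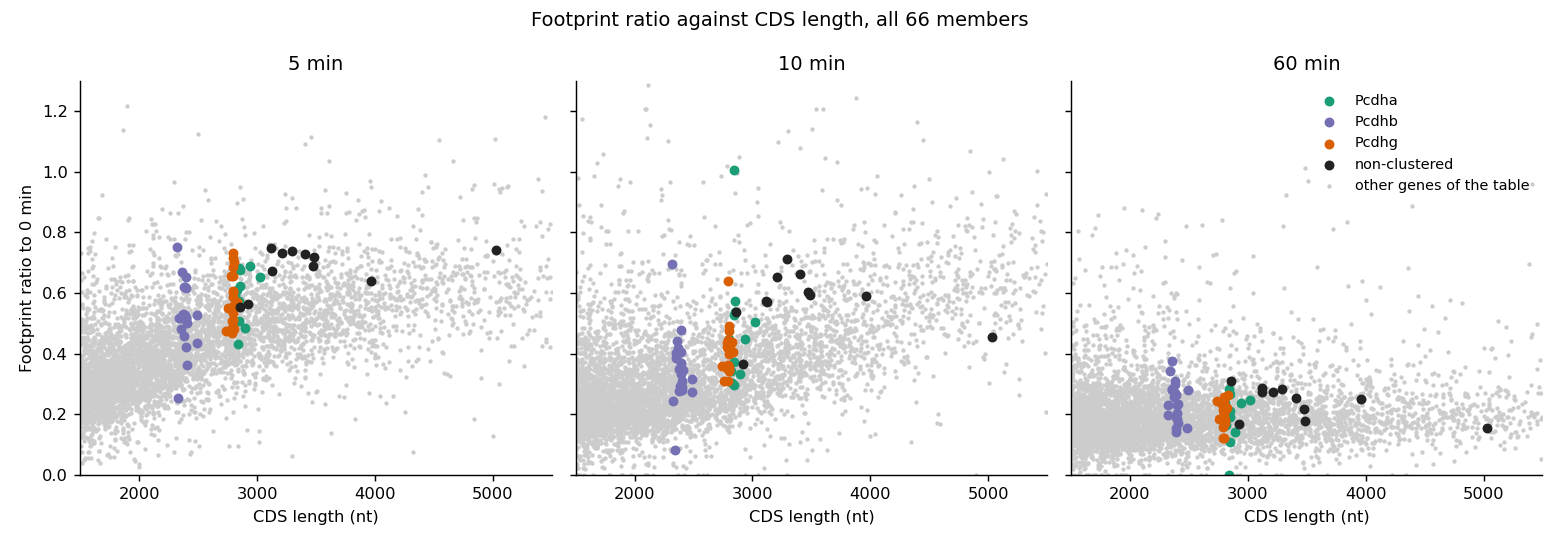
Footprint ratio to 0 min (vertical axis) against CDS length in nt at 5, 10 and 60 min, with coloured points for the 66 members and grey points for other genes. The Pcdhb genes form the left group with a median ratio of 0.344 at 10 min and the non-clustered genes the right one with 0.591. By 60 min the medians are 0.233 and 0.253.

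The timing of the loss after 5 min was set out in steps. Between 5 and 10 min the median step, the ratio of one signal to the one before, was 0.658 for Pcdhb, 0.721 for Pcdha, 0.719 for Pcdhg and 0.874 for non-clustered genes. Between 10 and 30 min it was 0.765, 0.595 and 0.685 for the clusters in that order and 0.510 for non-clustered genes. By these medians Pcdha, Pcdhg and non-clustered genes fell more between 10 and 30 min than between 5 and 10 min, and Pcdhb genes the reverse. The span from 10 to 30 min is the longer, so the steps are not rates of loss. All genes of 2200 to under 2600 nt, with steps of 0.663 and 0.805, showed the order of the Pcdhb genes. Those of 3000 to under 4000 nt, with 0.789 and 0.573, showed that of the non-clustered genes. Those of 2600 to under 3000 nt, the band of all Pcdhg and most Pcdha genes, had 0.688 and 0.710. That band thus fell slightly more between 5 and 10 min, unlike Pcdha and Pcdhg. Between 30 and 60 min all classes lay between 0.802 and 0.881. When the 0 min library was left out, the slope with the deposited factors was called lower for 58 of 63 members (background 47.7% lower and 0.533% higher), and the TMM-scaled slope was called lower for 8 of 63 members, where the background was 10.1% lower and 5.1% higher. They were Pcdh8, Pcdh9, Pcdh15 and Pcdh17 among non-clustered genes and Pcdha11, Pcdhga2, Pcdhga7 and Pcdhgc3 among clustered ones.

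Among δ1-protocadherins, which carry a tail motif that binds protein phosphatase 1, Pcdh1 had 6350, 4581, 3018, 1723 and 1694 counts at 0, 5, 10, 30 and 60 min. Its ratios were 0.747, 0.574, 0.308 and 0.274, and its slope with the deposited factors was -0.34 (SE 0.077, edgeR adjusted p = 0.0011). Pcdh7 was close to it, with 2514, 1773, 1362, 739 and 669 counts and a ratio of 0.273 at 60 min, the highest δ1 values at 10 min (0.654) and 30 min (0.333). Pcdh9, known for roles in the sensory cortex of mice, kept as much early and less late. It had 3798, 2634, 1866, 797 and 657 counts, with ratios of 0.719 and 0.593 at 5 and 10 min and of 0.238 and 0.178 at 30 and 60 min. At 60 min its interval, 0.163 to 0.193, did not overlap that of Pcdh1, 0.260 to 0.289. The X-linked Pcdh11x had 288, 178, 141, 64 and 70 counts, and its interval at 60 min, 0.189 to 0.325, overlapped both.

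Among δ2-protocadherins, several of which bind the actin-regulating WAVE complex, Pcdh8 lost footprints earliest. It had 4443, 2425, 1351, 741 and 718 counts and ratios of 0.565, 0.367, 0.189 and 0.166, the lowest non-clustered value at 10 min. Its slope was -0.47 (SE 0.074, adjusted p = 0.00021, edgeR). Pcdh19, the X-linked gene mutated in a human epilepsy of girls, was the opposite at 10 min, with 858, 613, 506, 237 and 236 counts and a ratio of 0.712 that had hardly moved from 0.740 at 5 min. Pcdh10, which takes part in FMRP-dependent synapse elimination in mouse neurons, had 1602, 1041, 755, 478 and 447 counts and kept a ratio of 0.287 at 60 min. Pcdh17, a synaptic protein of corticobasal ganglia circuits in mice, had 1286, 856, 642, 309 and 271 counts and kept 0.217. Their 60 min intervals, 0.258 to 0.319 and 0.189 to 0.247, did not overlap. Pcdh18, which binds the adaptor Dab1, had 122, 86, 67, 38 and 30 counts, too few to place it among these.

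Outside those subgroups, Pcdh20 had the flattest course. It had 1148, 612, 511, 385 and 346 counts, and its ratios were 0.552, 0.538, 0.380 and 0.310. It was thus the lowest non-clustered gene at 5 min and the highest at 30 and 60 min. Its slope, -0.28 (SE 0.069, adjusted p = 0.0020, edgeR), was the shallowest of the 64 members. Pcdh15 had 106, 76, 40, 10 and 16 counts and the steepest slope, -0.53 (SE 0.120, adjusted p = 0.0012). Its ratio at 30 min was 0.107, below the lowest value of any other member, but it rests on 10 counts. The TPM table lists Pcdh15 at 3, 9, 5, 6 and 2 TPM, higher at 30 min than at 0 min, so the tables differ in direction there and the 2-fold lower value at 30 min rests on the count table alone.

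Ratios of counts within a library need no scaling between libraries. For each 100 Pcdh8 counts there were 25.8, 25.2, 37.8, 52.0 and 48.2 Pcdh20 counts at 0, 5, 10, 30 and 60 min. The interval was 42.3 to 54.9 at 60 min and 24.2 to 27.6 at 0 min. For each 100 Pcdh17 counts there were 295.3, 307.7, 290.7, 257.9 and 242.4 Pcdh9 counts in time order, and the intervals at 60 min (210.1 to 280.3) and at 0 min (277.2 to 314.9) overlapped. These pairs were chosen after their values were seen, so they are a description with no test.

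**Figure D4:**
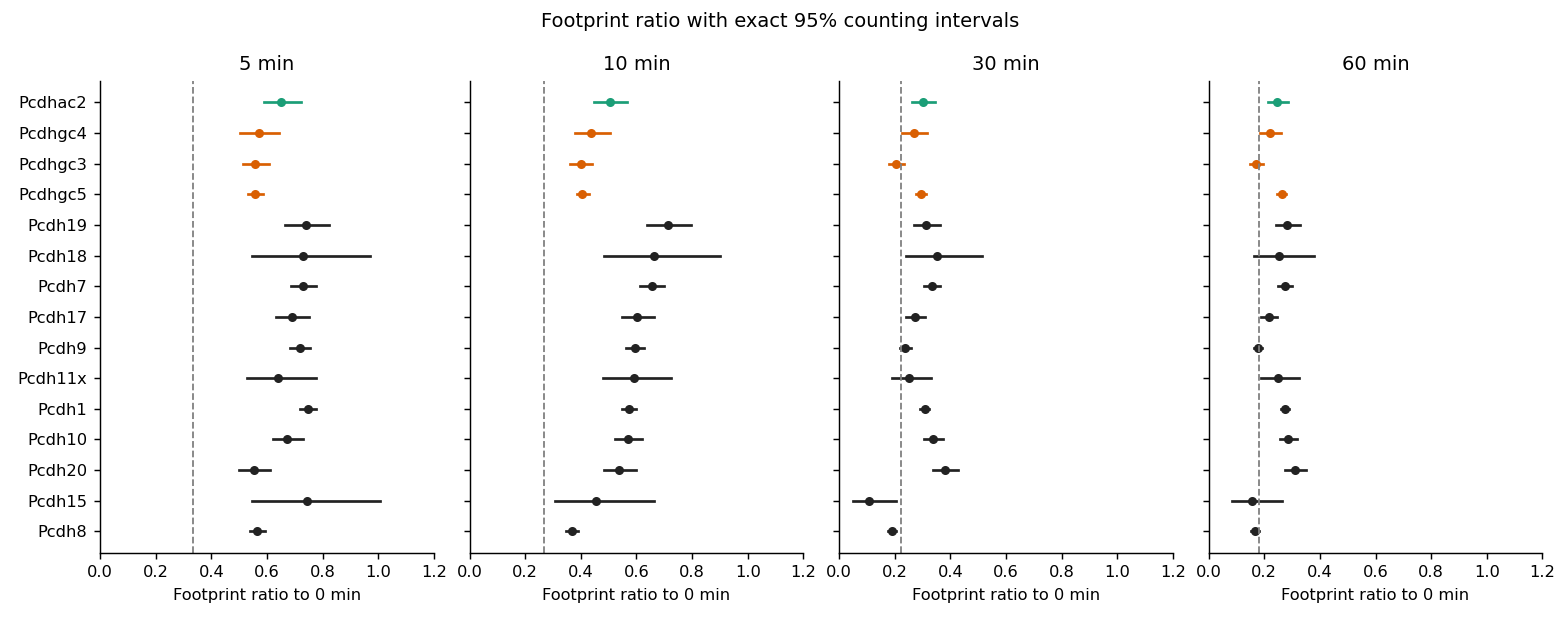
Footprint ratio to 0 min (horizontal axis) at each time for the 11 non-clustered members (black), Pcdhgc3, Pcdhgc4 and Pcdhgc5 (orange) and Pcdhac2 (green), with points for the ratio, bars for its exact 95% counting interval and a dashed line at the all-gene median. Pcdh8 lies lowest of the non-clustered genes at 10 min (0.367) and Pcdh19 highest (0.712), while Pcdh20 is highest at 60 min (0.310).

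In the Pcdhg array Pcdhgc5, known in rat to bind GABA-A receptors, had 5345, 2879, 1796, 1389 and 1366 counts. Its ratios were 0.558, 0.406, 0.295 and 0.263, with a slope of -0.34 (SE 0.069, adjusted p = 0.00062, edgeR). Pcdhgc3, which binds Axin1 and restrains Wnt signalling, had 1567, 845, 518, 282 and 261 counts and ratios of 0.559, 0.399, 0.204 and 0.171. The isoforms had nearly equal ratios at 5 and 10 min and intervals that did not overlap at 60 min, 0.247 to 0.279 for Pcdhgc5 and 0.150 to 0.195 for Pcdhgc3. Within a library there were 29.3, 29.4, 28.8, 20.3 and 19.1 Pcdhgc3 counts per 100 Pcdhgc5 counts, a pair again chosen after its values were seen. Pcdhgc4, needed for the survival of cortical interneurons in mice, had 731, 402, 265, 173 and 156 counts and a ratio of 0.219 at 60 min, between them. Pcdhgc5 came to 40.9% of the array's counts at 60 min (39.2 to 42.6), against 34.8% at 0 min (34.1 to 35.6).

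The numbered Pcdhg isoforms with the most counts lay close together at 60 min. Pcdhga11 had 949, 441, 280, 217 and 187 counts, Pcdhga12 had 791, 464, 290, 216 and 190, and Pcdhga3 had 598, 294, 175, 169 and 134. Their ratios at 60 min were 0.202, 0.247 and 0.230, with overlapping intervals. Pcdhga4 had 476, 245, 165, 90 and 84 counts, Pcdhga1 had 454, 264, 136, 101 and 100, Pcdhga6 had 438, 248, 125, 104 and 83, and Pcdhga7 had 424, 287, 151, 108 and 75. Those 4 genes ended between 0.181 and 0.226. Pcdhgb7 ended lowest of all members with at least 100 counts at 0 min, with 312, 146, 92, 72 and 37 counts and a ratio of 0.122 (0.084 to 0.172). Pcdhga5 ended highest of the numbered Pcdhg isoforms, at 0.258 (0.204 to 0.324), and these intervals did not overlap. For 18, 20, 19 and 18 of the 22 Pcdhg genes the counting interval held the ratio of the summed array at 5, 10, 30 and 60 min. The sum includes each gene's own counts, and how reads from shared exons were divided is not given. No conclusion on single isoforms is drawn from this.

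In the Pcdha array Pcdhac2 had 974, 613, 407, 258 and 234 counts and ratios of 0.652, 0.505, 0.300 and 0.247. Its share of Pcdha counts was 31.4%, 32.3%, 33.0%, 33.6% and 33.6%, with intervals that overlapped at all times. Pcdha12 had 428, 258, 191, 121 and 111 counts and kept 0.266 at 60 min. Pcdhac1, the other C-type isoform, had 124, 58, 34, 20 and 17 counts and ended at 0.141 (0.080 to 0.235). Pcdha8 had 12, 5, 10, 3 and 0 counts, so no course can be read from it. For 12, 11, 11 and 12 of the 12 Pcdha genes the interval held the ratio of the summed array.

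Single Pcdhb genes had few counts, 30 to 253 at 0 min and 9 to 61 at 60 min, and a median signal below those of the other subfamilies. Pcdhb9 had 253, 106, 57, 40 and 38 counts and ended at 0.154, and Pcdhb13 had 181, 92, 50, 36 and 25 and ended at 0.142. Pcdhb22, with 123, 62, 30, 31 and 37 counts, and Pcdhb5, with 127, 56, 29, 29 and 37, ended at 0.309 and 0.299. The intervals of Pcdhb22 (0.208 to 0.450) and Pcdhb13 (0.089 to 0.216) just overlapped. Pcdhb15, with 96 counts at 0 min, ended highest, at 0.375 (0.247 to 0.557). Its interval did not overlap that of Pcdhb13, and this gene was added after its value was seen. Pcdhb21 was lowest at 5 min, with 114, 28, 23, 30 and 22 counts and a ratio of 0.254. The interval held the ratio of the summed array for 19, 19, 20 and 18 of the 21 genes. For the non-clustered genes, which have more counts each, that was so for 7, 7, 4 and 4 of 11.

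The other genes of protocadherin biology fell as well with the deposited factors, and none was called with TMM scaling (edgeR). The lowest and highest ratios named are among genes with at least 100 counts at 0 min. Of the 16 tested regulators of cluster promoters and chromatin all 16 were called lower, with median ratios of 0.558, 0.446, 0.216 and 0.166. Ctcf, whose protein joins cluster promoters to their enhancers, had 927, 355, 165, 111 and 103 counts and a ratio of 0.114 at 60 min, the lowest of that list, and the cohesin loader Nipbl the highest, 0.201. Of the tested WAVE and kinase effectors 16 of 16 were called lower, from Cyfip1 at 0.116 to Wasf3 at 0.281. All 7 tested genes of ectodomain shedding and γ-secretase were called lower, from Adam17 at 0.136 to Adam10, the main sheddase of γ-protocadherins, at 0.329. All 21 tested classical cadherins and catenins were called lower, from Ctnnd1 at 0.102 to Cdh4 at 0.420, and Cdh22, with 86 counts at 0 min, stood at 0.442. Of 8 very long cadherins (Fat, Dchs and Celsr genes) 6 were called lower, and their median ratios were 0.915, 0.979, 0.485 and 0.307, with Fat3 lowest at 60 min (0.233) and Celsr3, which was not called, highest (0.524). Each list's call rate stands beside the same background of 94.2%.

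The deposited TPM table, rounded to whole numbers, differs from the count table by more than 4-fold for 1 member, Pcdha11. It had 365, 238, 173, 82 and 75 counts in the count table, in step with its neighbours, but 16, 37, 356, 17 and 521 TPM. After removing each library's typical difference between the tables, its TPM stood 3.40 log2 units above its counts at 10 min and 4.89 at 60 min, and 0.01 at 5 and at 30 min. At 60 min that was rank 1 of 10329 genes and at 10 min rank 3. Genes more than 4-fold apart in either direction numbered 35 at 10 min and 40 at 60 min. All other members lay between -1.24 and 0.46 at 10 min and between -0.73 and 0.38 at 60 min. At 30 min the range of the others was -0.62 to 1.88, with Pcdh15 at the upper end. The TPM table also lists Pcdha6, with 8, 19, 15, 12 and 13 TPM, and Pcdhb1 and Pcdh12, each listed at 0 in every library.

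**Figure D5:**
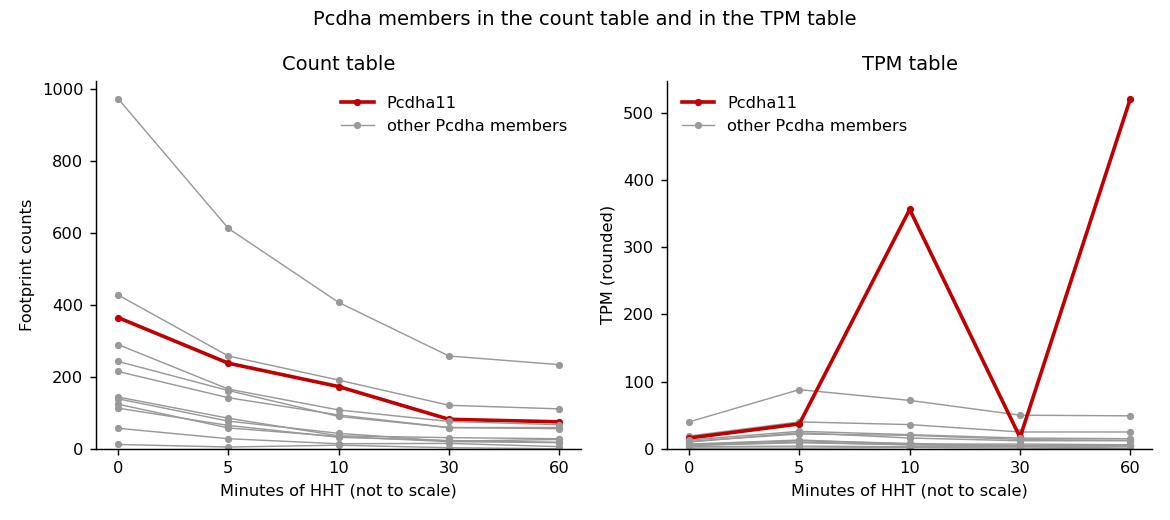
Footprint counts (left vertical axis) and rounded TPM (right vertical axis) of the 12 Pcdha members against minutes of HHT (not to scale), with Pcdha11 in red and the others in grey. In the count table Pcdha11 lies among the others, 75 counts at 60 min, and in the TPM table it stands at 356 at 10 min and 521 at 60 min.

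Markers of the cell types in the slices also moved as shares of the footprints. Summed TPM of 8 neuronal markers was between 7638 and 8731 in the 5 libraries, with Snap25 listed at 0 throughout. For 7 oligodendrocyte markers it was 14400 at 0 min and between 25516 and 33916 later, with Cldn11 listed at 0. The 5 of these in the count table went the other way, with 24753, 5409, 2972, 2309 and 1511 counts, or 0.346%, 0.194%, 0.147%, 0.153% and 0.112% of all counts in time order, and a median ratio of 0.042 at 60 min. Summed TPM was 443 and then between 85 and 171 for microglia, and between 3140 and 4514 for astrocytes, lowest at 60 min. Oligodendrocyte precursor markers summed to between 242 and 443, endothelial and mural markers to between 61 and 201, and choroid plexus and ependymal markers to between 13 and 49. The part of these shifts in the protocadherin values was not tested.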

How the data were processed

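Ribosome footprints were measured in 5 wild-type libraries, 1 per time. The build named in the submitters' processing notes is mm10, and the tools are SAMtools 0.0.19, TopHat2 2.0.9, Bowtie2 2.1.0, Trimmomatic 0.32 and cutadapt 1.7.1. Their roles, and any filters, strand setting and handling of shared reads, were not given in the sources used here. Deposited expected counts (RSEM, CDS without its ends, per the file headers and names) are whole numbers and were used as listed. The deposited signal is the count per kilobase of CDS, after taking 600 nt off its length, over 1 library factor. The deposited ratio divides the signal at each time by that at 0 min and was recomputed within 1e-06. The count table starts at 11 counts for 0 min and at 1 for 5 min, and genes below that are not in it. The deposited TPM table is a score here because its values are rounded.

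Slopes on log2(minutes + 1) were fitted to all genes with a mean of at least 10 counts with edgeR 4.0.16 in R 4.3.3, once with TMM and once with the deposited factors, with 3 residual degrees of freedom. The TMM-scaled fit was tested on simulated data with straight-line slopes, and the fit with the deposited factors was not. Log2 folds used TMM-scaled CPM and a prior count of 2. Intervals are exact conditional binomial (ratios) or Clopper-Pearson (shares), at 95%. DESeq2 1.42.0, limma 3.58.1 on log2(TPM + 1), other filters, other axes, another scaling and leaving out each library were alternatives. Of the 66 accessions 65 matched RefSeq (GRCm38.p6) under the same symbol. Pcdhgb8 did not, and its pseudogene label comes from its symbol.

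Members and lists were chosen with earlier results of these data known. Values in every library are given for the 20 members with the most counts at 0 min, the non-clustered members with at least 100, and the 3 highest and 3 lowest ratios at 10 and 60 min among members with at least 100. Of the pathway lists, genes with the lowest and highest ratios at 60 min among those with at least 100 counts at 0 min are named, and Cdh22 was added after its value was seen.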

Additional observations from a re-analysis of the deposited data

Results flagged for a closer look

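Pcdha11 stood out in the TPM table. The main slopes, ratios and log2 folds above do not use that table. The limma slopes, the class gaps from TPM and the summed TPM of markers do. Pcdha11 was listed at 521 TPM at 60 min and 356 TPM at 10 min, against 16 TPM at 0 min, while its counts were 75 and 173 against 365. Values at 5 and 30 min were 37 and 17 TPM. Pcdha6, which is listed in the TPM table alone, had 19 TPM at 5 min against 8 TPM at 0 min.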

How the results depend on the processing

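With the deposited factors the 64 members called lower became 0 on an axis of plain minutes and 58 to 64 when each library in turn was left out. With TMM scaling the number called was 0 in every alternative except without the 0 min library, where it was 8 (range 0 to 8). All 210 alternative slopes of the 30 named members with the deposited factors were negative. On plain minutes all 30 lost the call, without the 0 min library 3 did and without the 60 min library 1. The TMM-scaled slope of Pcdh20 was 0.12 with all libraries and from -0.0094 (without the 0 min library) to 0.18 (without the 60 min library) when 1 was left out, and the cause was not tested. The clustered median ratio was 0.581 at 5 min from TPM, 0.362 at 10 min over members with at least 100 counts and 0.402 at 10 min from summed counts. The non-clustered median ratio was 0.685, 0.550, 0.278 and 0.235 at 5, 10, 30 and 60 min from summed counts, and 0.767 at 5 min and 0.211 at 60 min from TPM, against 0.216 at 60 min for clustered members. The class difference, clustered minus non-clustered, was -0.0438 at 60 min with CDSs of 2000 to under 4000 nt. From summed counts it was -0.12, -0.15, -0.0080 and -0.0098 at 5, 10, 30 and 60 min, and from TPM -0.19 at 5 min and, reversed, 0.0048 at 60 min; both were chosen after seeing the data, and the cause was not tested. Median log2 folds with TMM were 0.74, 0.44, 0.20 and 0.30 for clustered and 1.10, 1.14, 0.44 and 0.45 for non-clustered members. With CPM alone they were 0.46, 0.10, 0.12 and 0.22 for clustered and 0.83, 0.78, 0.37 and 0.37 for non-clustered members, and with a prior count of 5 the non-clustered value at 5 min was 1.06. No paired analysis was possible because each time point has 1 library. Counting error is wide for single clustered genes: at 60 min each Pcdhb gene had 9 to 61 counts and Pcdha8 had 0.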
